A study of Mus musculus with 6 samples.

Results

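The genes described here are 39 general macrophage and leukocyte genes, measured among 22180 genes in hepatic stellate cells of the mouse. These cells lie along the liver sinusoids, store vitamin A, and become collagen-producing myofibroblasts in culture or after injury. The 39 genes were chosen by name, with earlier results of these data known, so their counts describe the data and are no independent test. Each stood for the probe set with the highest mean among those that the platform's table gave to that gene alone. All 39 had such a probe set (Alox5ap had 2, the others 1), and all 39 passed the filter on low signal that left 15526 genes to be tested.

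The study set 3 states beside each other in cells from young mice (8 to 11 weeks) and old mice (6 to 9 months), with 1 array for each of the 6 groups and the isolated cells of 5 mice pooled in each. Quiescent cells came from normal liver and had been plated for 12 h. Culture-activated cells had been kept on uncoated plastic for more than 20 days and received either vehicle (dimethyl sulfoxide) or C-82 at 10 µM, and the labels call the C-82 samples PRI-724. PRI-724 is converted to C-82, which keeps beta-catenin from binding its coactivator CBP. The labels give no strain, sex or time of exposure, and no step that would remove leukocytes is named in the sources used here.

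Macrophages are leukocytes, and genes such as these are known mainly from leukocytes. Whether stellate cells themselves express some of them was not tested. Resident macrophages of the liver, the Kupffer cells, depend on signals through the receptor Csf1r and on the transcription factor PU.1, which Spi1 encodes. They sense immune complexes and lipids through receptors that signal over the adaptors Tyrobp and Fcer1g, and they digest what they take up in lysosomes. The measure is the total signal of a bulk sample, in which fewer cells of a type and less RNA per cell cannot be told apart.

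Signals are log2 values as deposited, and a difference of 1 is a 2-fold change. With 1 array a group, the standard error (SE) of a state difference draws on the disagreement between the ages over all 3 states. It is moderated by limma with the spread of the other tested genes (2 residual and 7.77 prior degrees of freedom). A state difference has n = 2 pairs and the age difference n = 3. Nothing in the labels says how many separate cultures lay behind a pair. The number of arrays limits the precision. A gene is said to have risen or fallen where limma's adjusted p over all tested genes was under 0.05. Background was read from 1394 olfactory and vomeronasal receptor genes, taken as off in liver cells, whose median lay between 2.91 and 3.44 and whose 95th percentile lay between 5.07 and 5.97 on the 6 arrays. The array of young PRI-724-treated cells differed from the rest in its spread. Its interquartile range was 1.71 over the tested genes, against 2.11 to 2.43 on the other 5. Counts of members that fell with PRI-724 are given without this array too. Most values of single genes and of lists rest on all arrays and are not repeated without it. Of 15 measured stellate cell markers, 14 or 15 lay above that 95th percentile on the other 5 arrays and 11 on the young PRI-724 array.

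The macrophage genes were well measured in quiescent and in vehicle-treated cells, and most were far lower with PRI-724. On the quiescent arrays the median member signal was 7.67 in young and 8.00 in old cells. The vehicle arrays had medians of 7.68 and 7.47, and the PRI-724 arrays 5.76 and 6.00. At or under the background's 95th percentile lay 2 members on the young quiescent array (Itgam and Itgax), 1 on the old quiescent array (Aif1), 0 on the young vehicle array and 1 on the old vehicle array (Aif1). On the PRI-724 arrays 22 members lay there in young and 11 in old cells.

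**Figure D1:**
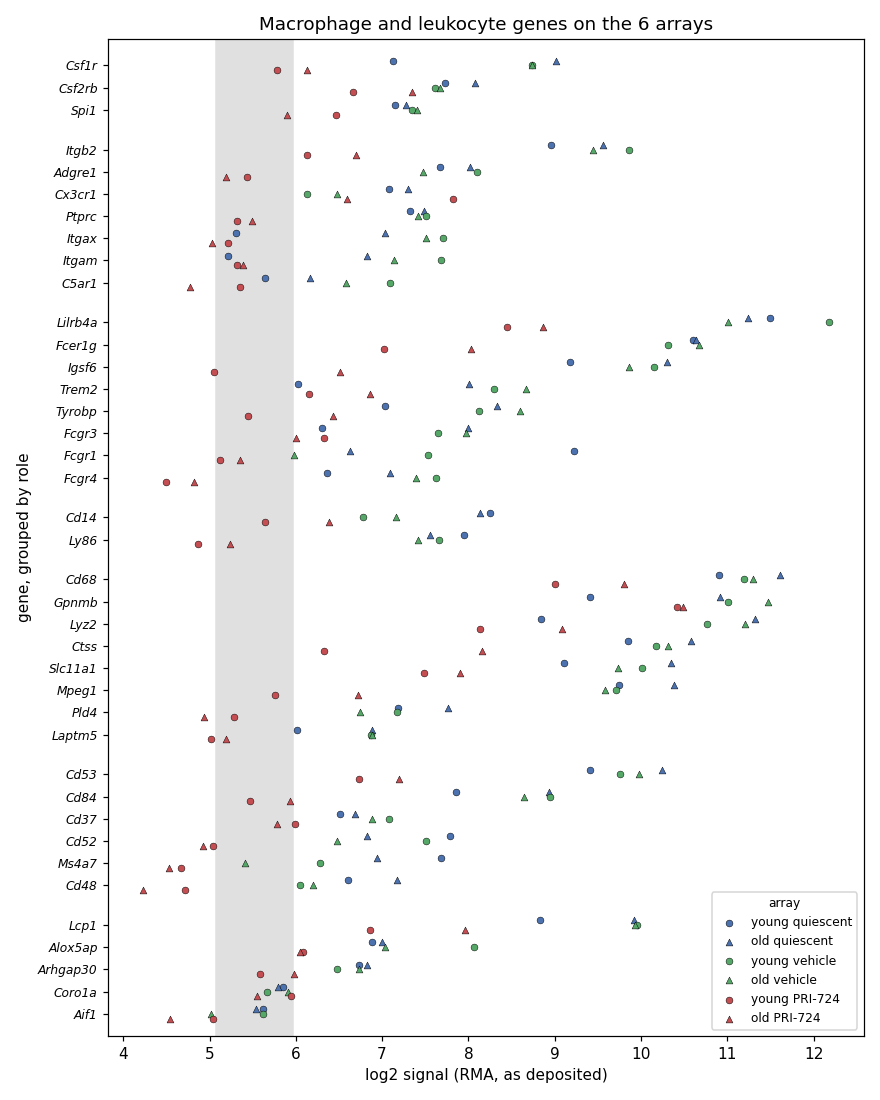
Log2 signal of the 39 members (rows, grouped by role) on the 6 arrays, with circles for young and triangles for old cells and colours for the 3 states. The grey band spans the background's 95th percentile over the arrays, 5.07 to 5.97; 22 members lie at or under that of their own array on the young PRI-724 array and 11 on the old one.

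The first comparison asked how PRI-724 changed activated cells. Of the 39 members 27 fell and 0 rose, where 1.93% of all tested genes fell and 0.271% rose. The median member difference was -2.01, against -0.05 over all tested genes, and the members' quartiles were -2.66 and -1.37. Both PRI-724 arrays lay under both vehicle arrays for 36 of 39 members (26.3% of all tested genes did so), and the other 3 were Cx3cr1, Coro1a and Aif1. Cx3cr1 was the 1 member with both PRI-724 arrays over both vehicle arrays (18.2% of all tested genes). In the young pair 32 members were at least 2-fold lower, against 12.3% of all tested genes, and 1 at least 2-fold higher, against 3.95%. In the old pair 29 were lower, against 2.84%, and 0 higher, against 0.721%. Without the young PRI-724 array no gene of the 15526 was called by limma, although 33 members were lower at an unadjusted p under 0.05 (4.64% of all tested genes) and the median of the 39 stood at -2.14. All 33 were among the 35 lower at that p with every array. Without the old PRI-724 array 10 members fell (1.25% of all tested genes), after cyclic loess 16 (0.644%), after quantile normalization 15 (0.528%), and without age in the model 12 (0.554%).

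Among the genes of growth and lineage control, the receptor fell while the factor and the shared cytokine chain did not pass the test. Csf1r, the receptor for the macrophage growth factor CSF-1, had signals of 7.13 and 9.01 in young and old quiescent cells, 8.74 and 8.74 with vehicle, and 5.79 and 6.13 with PRI-724. Both PRI-724 arrays lay under the other 4, and Csf1r fell by 2.78 ± 0.42 (SE, adjusted p = 0.0102). The young PRI-724 signal lay under that array's 95th percentile of background, and with that percentile in its place Csf1r was at least 6.47-fold lower. Spi1, the gene of PU.1, stood at -1.20 ± 0.29 (adjusted p = 0.0735), with -0.89 in young cells and -1.51 in old cells. Csf2rb, the common beta chain of the receptors for GM-CSF, IL-3 and IL-5, stood at -0.63 ± 0.29 (adjusted p = 0.333).

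The 7 genes of surface receptors and adhesion split 6 to 1. Itgb2, the beta chain that all leukocyte beta-2 integrins share, had signals of 8.96 and 9.56 in quiescent, 9.86 and 9.44 in vehicle-treated and 6.13 and 6.70 in PRI-724-treated cells, young before old. It fell by 3.24 ± 0.32 (adjusted p = 0.00171), and its alpha partners Itgam (CD11b) and Itgax (CD11c) fell, at -2.05 ± 0.44 (adjusted p = 0.0458) and -2.49 ± 0.44 (adjusted p = 0.0205). Adgre1, which encodes the macrophage antigen F4/80, Ptprc, the pan-leukocyte phosphatase CD45, and C5ar1, the receptor for the complement fragment C5a, fell too, with differences from -2.47 to -1.77. Cx3cr1, the receptor for fractalkine, went the other way without passing the test. Its signals were 7.08 and 7.30 in quiescent, 6.12 and 6.48 in vehicle-treated and 7.82 and 6.59 in PRI-724-treated cells. Its mean difference was 0.90 ± 0.39 (adjusted p = 0.2999), of which the young pair held 1.69 and the old pair 0.11.

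Of the 8 Fc receptors, adaptors and paired receptors 6 fell, with the largest change of all members among them. Igsf6, an immunoglobulin superfamily receptor of myeloid cells, had signals of 9.17 and 10.30 in quiescent cells, 10.15 and 9.86 with vehicle, and 5.05 and 6.51 with PRI-724. The PRI-724 arrays lay more than 2 units under every other array, and Igsf6 fell by 4.22 ± 0.39 (adjusted p = 0.00138). Its young PRI-724 signal was not above the background's 95th percentile, and with that percentile in its place Igsf6 was at least 13.6-fold lower. For 22 members at least 1 PRI-724 signal lay at or under that percentile, and their differences are to be read with that limit. With all such signals raised to it, Igsf6 still had the largest difference of the members, -3.77, before Mpeg1 at -3.30. Lilrb4a, an inhibitory receptor, had signals of 11.50 and 11.24, then 12.18 and 11.01, then 8.44 and 8.87 in the same order of states. It fell by 2.94 ± 0.32 (adjusted p = 0.00248).

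The adaptors that carry the activating signal fell by like amounts. Fcer1g, the common gamma chain of the activating Fc receptors, fell by 2.96 ± 0.28 (adjusted p = 0.00138), and Tyrobp, known as DAP12, fell by 2.42 ± 0.30 (adjusted p = 0.00391). Trem2, the lipid receptor that signals through Tyrobp, fell by 1.98 ± 0.38 (adjusted p = 0.0314). Of the Fc gamma receptors Fcgr4 fell by 2.85 ± 0.30 (adjusted p = 0.00210). Fcgr3 stood at -1.64 ± 0.42 (adjusted p = 0.0889) and the high-affinity receptor Fcgr1 at -1.52 ± 0.53 (adjusted p = 0.203). Both PRI-724 signals of Fcgr4 lay under the background's 95th percentile. With that percentile in their place its difference was -1.86, close to that of Fcgr3. Fcgr1 had the widest disagreement of the pairs among the members, with -2.41 in young cells and -0.63 in old cells.

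Of the endotoxin sensing genes, Ly86, which encodes MD-1, a partner of the receptor RP105, fell and Cd14 did not pass the test. Ly86 had signals of 7.95 and 7.55 in quiescent, 7.66 and 7.42 in vehicle-treated and 4.86 and 5.24 in PRI-724-treated cells. It fell by 2.49 ± 0.29 (adjusted p = 0.00342). Cd14, the coreceptor that hands lipopolysaccharide to TLR4, had signals of 8.25 and 8.14, then 6.78 and 7.16, then 5.64 and 6.38. Its PRI-724 difference was -0.95 ± 0.30 (adjusted p = 0.161), and its vehicle signals lay under the quiescent ones at each age.

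The lysosome, granule and killing genes fell in 7 of 8 cases. Mpeg1, the pore-forming perforin-2 of macrophages, had signals of 9.74 and 10.38 in quiescent, 9.71 and 9.59 in vehicle-treated and 5.76 and 6.73 in PRI-724-treated cells, and fell by 3.41 ± 0.31 (adjusted p = 0.00138). Ctss, the protease cathepsin S, fell by 2.999 ± 0.37 (adjusted p = 0.00389), with -3.85 in young cells and -2.15 in old cells. Lysozyme (Lyz2), the metal transporter gene Slc11a1, the exonuclease gene Pld4 and the lysosomal membrane gene Laptm5 fell with differences from -2.39 to -1.78. Cd68, a lysosomal glycoprotein, had signals of 10.90 and 11.61 in quiescent, 11.19 and 11.30 in vehicle-treated and 9.00 and 9.80 in PRI-724-treated cells. It fell by 1.85 ± 0.22 (adjusted p = 0.00376), and both PRI-724 signals stayed over 3 units above the background's 95th percentile. Gpnmb, a transmembrane glycoprotein induced in lipid-laden macrophages, had signals of 9.41 and 10.92, then 11.01 and 11.47, then 10.42 and 10.49. It stood at -0.79 ± 0.30 (adjusted p = 0.253) and did not overlap between PRI-724 and vehicle.

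Of the 6 leukocyte membrane glycoproteins 5 fell. Cd53, a tetraspanin of blood cells, had signals of 9.40 and 10.24 in quiescent, 9.76 and 9.98 in vehicle-treated and 6.74 and 7.20 in PRI-724-treated cells. It fell by 2.90 ± 0.27 (adjusted p = 0.00138), by similar amounts in the young (-3.02) and old pair (-2.78). Cd84, a self-binding receptor of the SLAM family, had signals of 7.85 and 8.93, then 8.95 and 8.64, then 5.46 and 5.93, and fell by 3.10 ± 0.35 (adjusted p = 0.00286). Cd52 and Cd48, both anchored to the membrane by a lipid, fell, at -2.01 ± 0.30 (adjusted p = 0.0101) and -1.65 ± 0.30 (adjusted p = 0.0229). Ms4a7, a membrane protein of macrophages, passed the threshold narrowly at -1.25 ± 0.27 (adjusted p = 0.04998), and the tetraspanin gene Cd37 stood at -1.10 ± 0.26 (adjusted p = 0.0713). Both PRI-724 signals of Cd52, Cd48 and Ms4a7 lay at or under the background's 95th percentile. With that percentile in their place the differences were -1.335, -0.47 and -0.19, so the falls of Cd48 and Ms4a7 depend on signals within the background.

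The genes of the leukocyte cytoskeleton and of leukotriene synthesis were mostly not called. Lcp1, the actin-bundling protein L-plastin, had signals of 8.83 and 9.92 in quiescent, 9.96 and 9.93 in vehicle-treated and 6.86 and 7.96 in PRI-724-treated cells, and fell by 2.53 ± 0.32 (adjusted p = 0.00436). Alox5ap, the membrane partner of 5-lipoxygenase, stood at -1.48 ± 0.33 (adjusted p = 0.0537), on the brighter of its probe sets. Its dimmer probe set had signals between 4.84 and 5.43 on all 6 arrays, near the background. Arhgap30, a GTPase-activating protein, stood at -0.82 ± 0.26, Aif1, the calcium-binding protein Iba1, at -0.53 ± 0.25 and Coro1a, an actin-binding coronin, at -0.04 ± 0.26. Coro1a signals lay between 5.55 and 5.94 and Aif1 signals between 4.55 and 5.62, so both stayed near the background in every state.

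**Figure D2:**
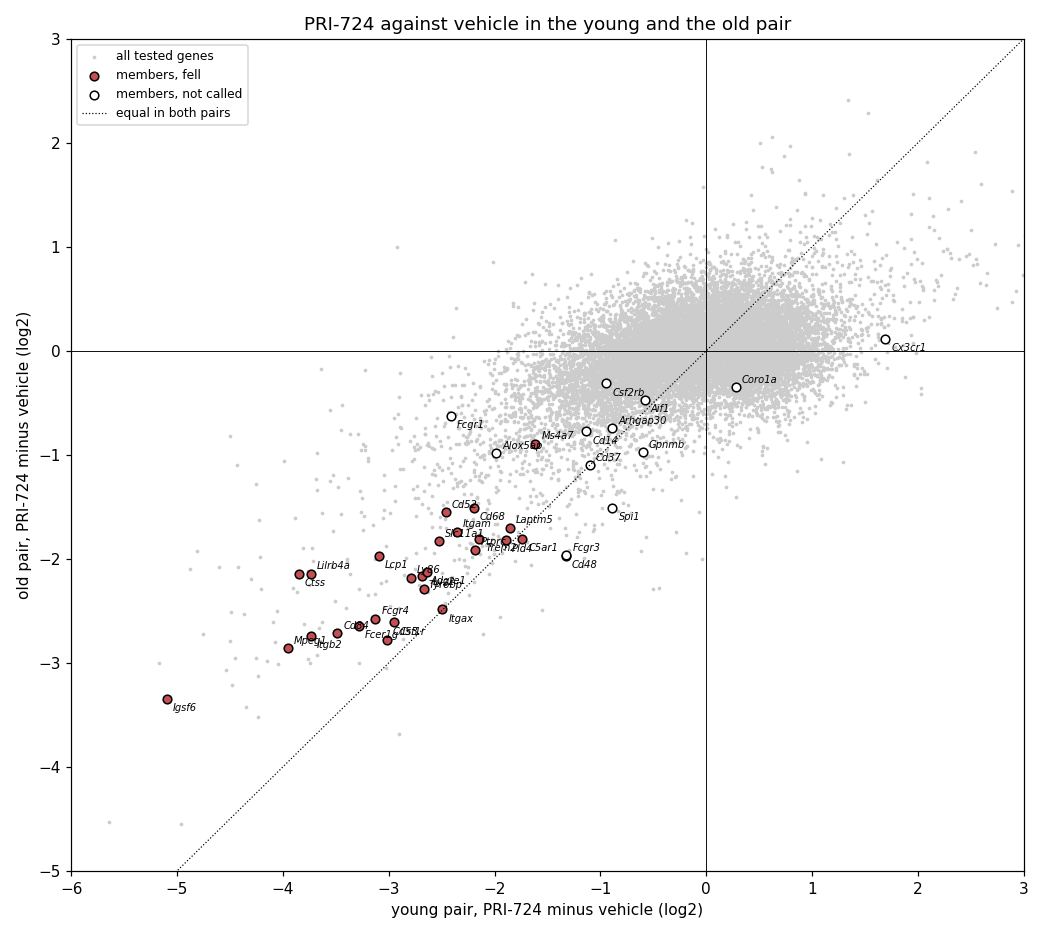
PRI-724 minus vehicle differences in log2 units in the young (horizontal) and old pair (vertical), with grey points for all 15526 tested genes, filled points for the 27 members that fell and open points for the 12 not called. The members spread along a line from Cx3cr1 at 1.69 and 0.11 to Igsf6 at -5.10 and -3.35.

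The measured signals of the members did not fall by 1 common amount. Their mean differences ran from -4.22 to 0.90 with a standard deviation of 1.01, whereas the SE of a member lay between 0.22 and 0.53 with a median of 0.31. The background limits the fall that can be seen, and 22 members lay at or under its 95th percentile on the young PRI-724 array. The SE measures neither this limit nor differences between probe sets, so unequal differences do not show an unequal loss of RNA. The order of the members was similar in both pairs, which share no array. Over the 39 members the pair differences correlated at r = 0.86 (Spearman's rank correlation 0.86), against 0.57 and 0.40 over all tested genes. These correlations are across genes on the same 4 arrays, and genes are not independent replicates. Both pairs also share the probe sets and a background limit.

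How far a member fell also went with how far its vehicle signal stood above the background. Across the 39 members, vehicle signal above the background median and PRI-724 difference correlated at r = -0.65 (rank correlation -0.71) in young cells and r = -0.53 (rank correlation -0.57) in old cells. Both measures use the same vehicle array, and signals of different probe sets do not rank transcript numbers. Among the 12 members with a mean vehicle signal of at least 9, the differences still ran from -4.22 (Igsf6) to -0.79 (Gpnmb), with a median of -2.92.

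With the background median taken off on the linear scale, the signal left with PRI-724 was a median of 16.5% of vehicle in the young pair (39 members, 1.98% to 345%) and 22.6% in the old pair (38 members, 8.90% to 108%). The quartiles were far apart, 10.6% and 31.3% in young cells and 15.6% and 39.02% in old cells. Csf1r kept 10.6% and 14.5%, Itgb2 6.41% and 13.8%, Cd68 21.5% and 35.0%, and Csf2rb 48.2% and 79.4%, young before old. Cx3cr1 held the top of both ranges. The medians depend on the background chosen: with the 95th percentile taken off they were 0% and 11.0%, since many signals lay under it, and with nothing taken off 19.5% and 27.3%.

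**Figure D3:**
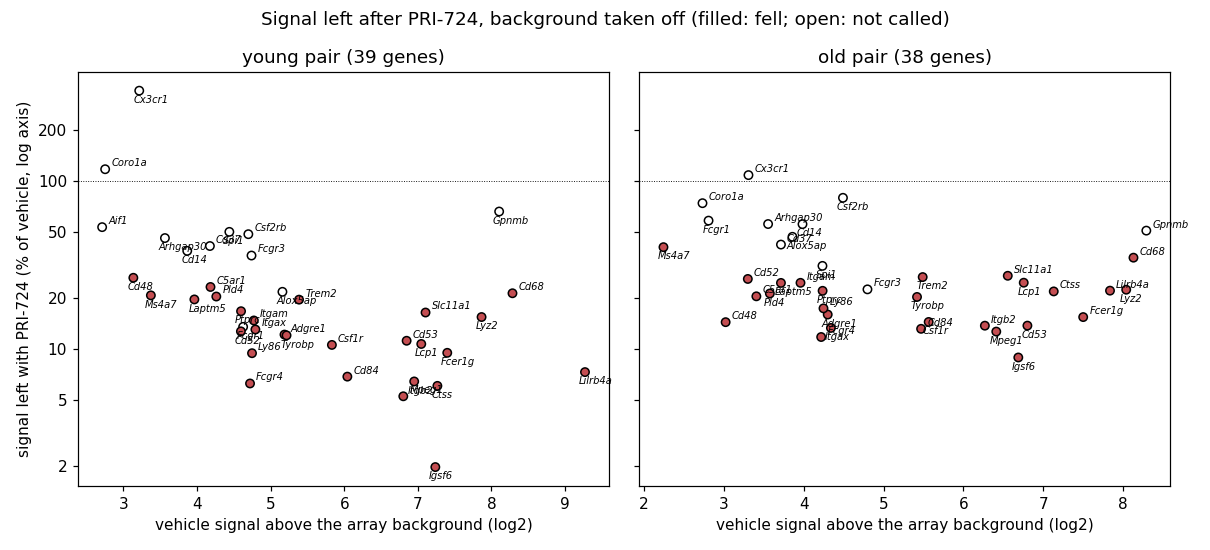
Signal left with PRI-724 as a percent of vehicle (log axis), background median taken off, against the vehicle signal above that background in log2 units, for the young and the old pair. Filled members fell and open ones were not called; the dotted line marks 100%, and Gpnmb stays high at the bright end while Igsf6 lies lowest in both pairs, at 1.98% and 8.90%.

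Promoter sequence was read because most of these genes moved together, and PU.1 is known to bind purine-rich elements near the starts of many myeloid genes. RefSeq windows on GRCm38.p6 were found for 29 of the 39 members. The PU box, GAGGAA on either strand, occurred within 250 bases before the start of 14 of these 29, or 48.3%, against 25.9% of 27025 genes. It occurred in 10 of the 21 members that fell and in 4 of the 8 not called. Within 60 bases of the start, a limit chosen after the positions were seen, it occurred in 10 of 29 members (34.5%) and in 7.02% of all genes, and of these 10 members 6 fell and 4 were not called. The AP-1 element TGANTCA, on either strand, occurred in 5 of 29 members (17.2%) and 7.82% of all genes, and all 5 were among the members that fell. A match describes these letters and does not show that a factor binds there.

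The 60 bases before the start are shown for members of both kinds with a PU box there, 5′ to 3′ in the sense of the gene, with the box or its reverse complement TTCCTC in capitals. Not every start used is the gene's outermost one. The Laptm5 and Cd37 windows lie wholly, and the Aif1 window partly, inside the gene's outer limits. Fcgr4 (chr1:171018866-171018925, plus strand), Itgam (chr7:128062580-128062639, plus strand), Laptm5 (chr4:130913256-130913315, plus strand) and Trem2 (chr17:48346341-48346400, plus strand) fell with PRI-724, and Cd37 (chr7:45238840-45238899, minus strand) and Aif1 (chr17:35176053-35176112, minus strand) were not called.
Fcgr4: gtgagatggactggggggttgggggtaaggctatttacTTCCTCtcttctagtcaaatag
Itgam: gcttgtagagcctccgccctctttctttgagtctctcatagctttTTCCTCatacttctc
Laptm5: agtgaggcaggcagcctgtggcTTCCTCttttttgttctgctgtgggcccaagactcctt
Trem2: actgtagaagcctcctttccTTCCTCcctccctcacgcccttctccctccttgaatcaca
Cd37: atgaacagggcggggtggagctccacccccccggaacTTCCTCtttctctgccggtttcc
Aif1: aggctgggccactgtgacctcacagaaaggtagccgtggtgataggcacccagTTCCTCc

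The 250 bases before the start are shown for the members at the ends of the range of responses, Igsf6 (chr7:121074531-121074780, minus strand) and Cx3cr1 (chr9:120068297-120068546, minus strand). Igsf6 holds 1 PU box, 39 bases before the start and on the opposite strand, in capitals, and its window lies partly inside the gene's outer limits. The Cx3cr1 window holds neither of the 2 motifs.
Igsf6: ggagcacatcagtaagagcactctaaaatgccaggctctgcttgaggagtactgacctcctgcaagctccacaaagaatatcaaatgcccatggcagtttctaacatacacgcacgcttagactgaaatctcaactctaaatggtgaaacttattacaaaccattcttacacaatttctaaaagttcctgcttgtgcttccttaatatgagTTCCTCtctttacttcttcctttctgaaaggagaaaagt
Cx3cr1: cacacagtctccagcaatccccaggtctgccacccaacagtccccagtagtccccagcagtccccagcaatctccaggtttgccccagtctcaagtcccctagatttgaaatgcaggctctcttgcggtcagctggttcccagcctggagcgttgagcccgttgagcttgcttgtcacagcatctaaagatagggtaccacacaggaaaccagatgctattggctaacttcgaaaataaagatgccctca

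Other genes of the same cells and pathways were read from lists. Of 14 tested genes of signalling downstream of Tyrobp and Fcer1g 7 fell and 0 rose, with a median of -1.26. Rac2, a leukocyte GTPase, fell by 2.10 ± 0.29 (adjusted p = 0.00678) and Inpp5d, the phosphatase SHIP1, by 2.08 ± 0.37 (adjusted p = 0.0209). Of 10 tested myeloid transcription factor genes 3 fell, with a median of -0.74, among them Fli1, of the Ets family and also known from endothelium, at -2.07 ± 0.31 (adjusted p = 0.0102). Of 13 tested Kupffer cell identity genes 7 fell, with a median of -1.97. Cd5l and Vsig4 were named with the largest differences, -5.14 ± 0.51 and -5.08 ± 0.33. Both PRI-724 signals of Vsig4 (3.605 and 4.35) and the young one of Cd5l (4.26) lay under the background's 95th percentile, so these sizes are uncertain. Of 11 tested genes of lipid-associated macrophages 3 fell, with a median of -0.95. None of these lists held a gene that rose. Of 4 tested monocyte markers 0 were called, with a median of -0.09. Of 6 tested dendritic cell markers 0 were called, with a median of 0.39, and 4 were higher and 1 lower in both pairs. Of 7 measured monocyte markers, 2 and 3 lay above the background's 95th percentile on the young and old vehicle arrays. Of 7 measured dendritic cell markers, 3 and 2 did, so most markers of both kinds had little room to fall.

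Neither ligand of Csf1r was called. Il34 stood at -0.64 ± 0.29 (adjusted p = 0.323), with -1.04 and -0.24 in the pairs. Csf1, which stellate and other stromal cells are known to make, had signals between 11.64 and 11.92 on all 6 arrays and a PRI-724 difference of -0.05 ± 0.16 (adjusted p = 0.904). In the same list of colony-stimulating factors and receptors, Csf2ra, the GM-CSF receptor alpha chain, fell by 1.98 ± 0.30 (adjusted p = 0.00970) and Csf2rb2, the IL-3 receptor beta chain, by 3.25 ± 0.45 (adjusted p = 0.00667). Csf2rb2 is a close copy of Csf2rb, which stood at -0.63, so their probe sets may share signal and both values are uncertain. Lilrb4a, Lyz2 and the Fc gamma receptors also have close relatives in the genome. The copy Lyz1 had signals between 3.99 and 5.33. Fcgr2b, the inhibitory relative of Fcgr3, had signals of 11.23 and 10.51 with vehicle and 6.695 and 7.44 with PRI-724, so the value of Fcgr3 is uncertain too.

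Markers of lymphocytes and granulocytes lay near the background. Of 7 measured B cell markers 0 were above the background's 95th percentile on any array, of 8 T cell markers 0 to 3, of 8 NK cell markers 1 or 2 and of 12 neutrophil markers 0 to 4. Only 15 of these 35 genes passed the filter on low signal, and none of the 15 was called with PRI-724 by limma. Broad lysosome genes, which most cell types express, had a median of -0.34, and 1 of 12 tested genes fell. Housekeeping genes had a median of -0.23, with 0 of 10 called, and -0.44 in the young against 0.06 in the old pair.

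Endothelial markers moved with the macrophage genes. Of 12 sinusoidal endothelial markers 10 fell, with a median of -3.33. Their summed log2 signal was 114.2 and 95.6 on the quiescent arrays, 112.0 and 106.9 with vehicle, and 71.4 and 77.4 with PRI-724, young before old. All 12 lay above the background's 95th percentile on the quiescent and vehicle arrays, and 6 and 11 on the young and old PRI-724 arrays. Of 12 pan-vascular markers 9 fell, with a median of -2.14. Of 12 myofibroblast markers 1 fell, with a median of -1.13, -2.24 in young and -0.37 in old cells. Of 15 stellate cell markers 2 fell, with a median of -0.54, and 10 were lower in both pairs. Of 12 hepatocyte markers 0 were called, with a median of 0.53, 1.16 in young and -0.05 in old cells. Their part in the results of the macrophage genes was not tested.

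**Figure D4:**
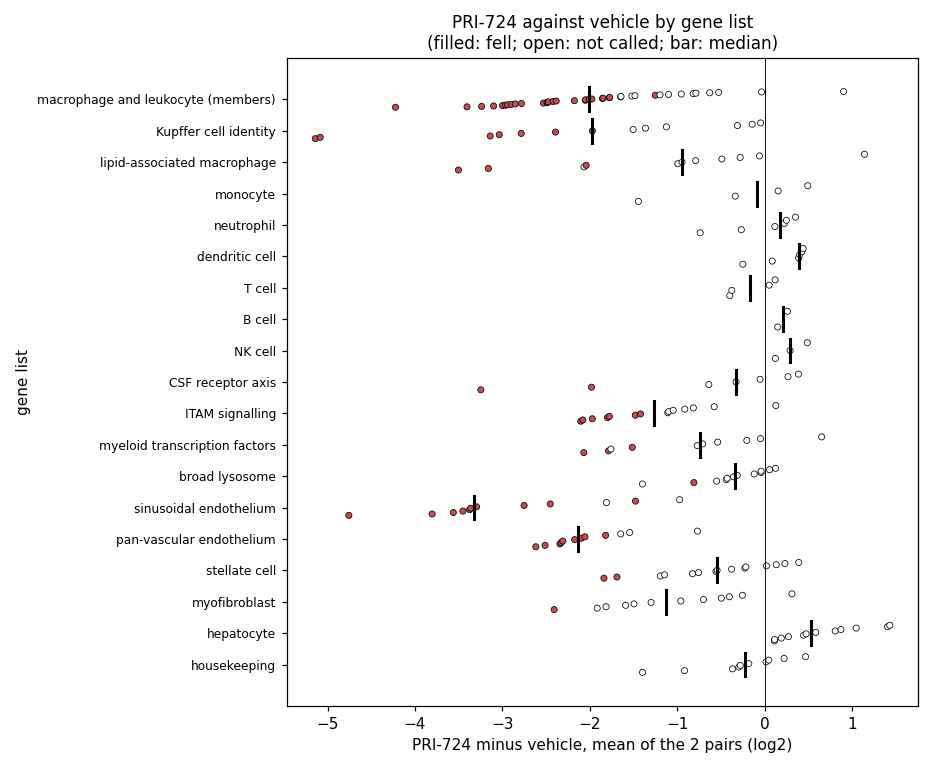
PRI-724 minus vehicle differences (log2, mean of the 2 pairs) for the tested genes of the members and of each list, with filled points for genes that fell, open points for genes not called and a bar at the list median. The medians of the members (-2.01), Kupffer cell identity (-1.97) and sinusoidal endothelial markers (-3.33) lie well under 0, and those of housekeeping (-0.23) and broad lysosome genes (-0.34) close to it.

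The second comparison asked what culture activation did to the same genes. Most members were not called in either direction after more than 20 days of culture. Of the 39 members 2 fell and 0 rose, where 1.26% of all tested genes fell and 4.61% rose, and 12 members had an unadjusted p under 0.05, as did 22.4% of all tested genes. The median member difference was 0.14, against 0.04 over all tested genes, and the members ran from -1.46 to 1.46. This median had no stable sign: it was -0.08 after cyclic loess and after quantile normalization, and ran from -0.17 to 0.48 with 1 array left out. Ms4a7, with signals of 7.68 and 6.94 in quiescent and 6.28 and 5.42 in vehicle-treated cells, fell by 1.46 ± 0.27 (adjusted p = 0.0173). Cd14 fell by 1.23 ± 0.30 (adjusted p = 0.0430), and its vehicle signals of 6.78 and 7.16 lay more than 0.9 units under its quiescent ones at the same age.

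At the other end stood Trem2 at 1.46 ± 0.38 (adjusted p = 0.0555), Itgax at 1.44 ± 0.44 (adjusted p = 0.0846), Itgam at 1.39 ± 0.44 (adjusted p = 0.0945) and Gpnmb at 1.08 ± 0.30 (adjusted p = 0.0695), none of which passed the test. The pairs differed in size for these genes. Itgam went from 5.21 to 7.68 in young cells and from 6.83 to 7.13 in old cells. Itgax stood at differences of 2.40 and 0.48, Trem2 at 2.27 and 0.65, and Gpnmb at 1.61 and 0.55. In the young pair 13 members were at least 2-fold higher and 3 at least 2-fold lower (10.2% and 3.74% of all tested genes), and in the old pair 0 and 2 (6.09% and 2.77%). Medians were 0.43 in young cells and -0.13 in old cells, against 0.04 and 0.05 over all tested genes. In the pairs 15 members had opposite signs, as did 4029 of the 15526 tested genes. Both vehicle arrays lay under both quiescent arrays for 8 members and over both for 10 (24.9% and 33% of all tested genes).

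Single arrays set these calls. Without the old quiescent array 7 members rose and 3 fell (3.47% and 1.46% of all tested genes), and without the old vehicle array 5 rose and 0 fell (6.27% and 1.66%). The 5 genes Itgam, Itgax, Trem2, Lyz2 and Gpnmb rose in both cases, with C5ar1 and Fcgr3 in the former only, where Fcgr1 also fell. Cd14 lost its call without the young quiescent (adjusted p = 0.395), young vehicle (0.309), old vehicle (0.1003), young PRI-724 (0.0582) or old PRI-724 array (0.0580), and Ms4a7 without the old vehicle array (0.0666). Quantile normalization and the model without age left neither call.

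Markers of other cells moved in this comparison. Of 15 stellate cell markers 8 rose and 2 fell, with a median of 1.22, and of 12 myofibroblast markers 5 rose, with a median of 1.66. Of 12 hepatocyte markers 4 fell and all 12 were lower in both pairs, with a median of -1.65. Of 12 pan-vascular markers 4 rose, with a median of -0.20, and of 12 sinusoidal markers 2 rose, with a median of 0.16. Of 13 Kupffer cell identity genes 1 rose, with a median of -0.21. The part of these markers in the members' differences was not tested.

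**Figure D5:**
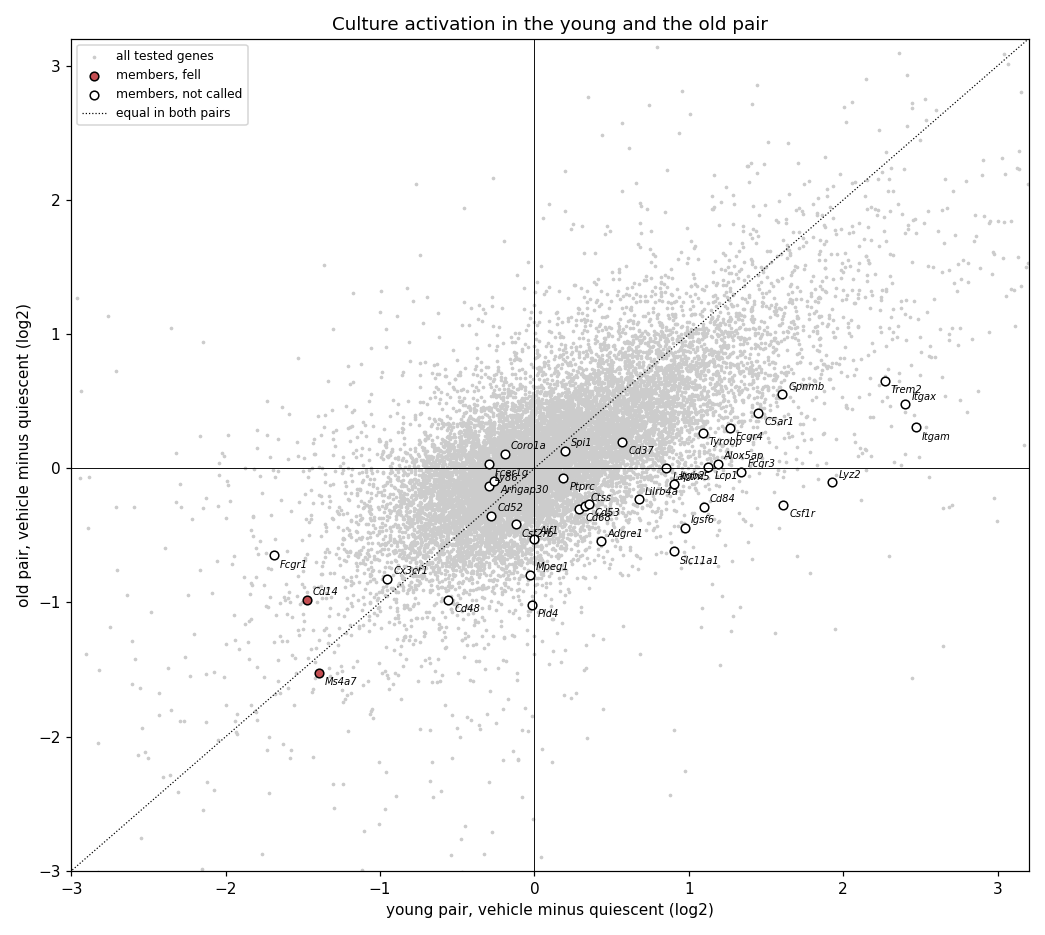
Vehicle minus quiescent differences in log2 units in the young (horizontal) and old pair (vertical), with grey points for all tested genes, filled points for the 2 members that fell and open points for the 37 not called. Itgam, Itgax and Trem2 lie far to the right, with 2.47, 2.40 and 2.27 in young cells and 0.30, 0.48 and 0.65 in old cells.

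Set against quiescent cells, PRI-724-treated cells had 24 members that fell and 0 that rose, where 2.43% of all tested genes fell and 1.28% rose. The median was -1.99, against 0.03 over all tested genes. In the young pair 25 members were at least 2-fold lower and 1 higher (8.12% and 3.19% of all tested genes), and in the old pair 31 and 0 (3.73% and 4.7%). Both PRI-724 arrays lay under both quiescent arrays for 32 members and over both for 0 (18% and 19.6% of all tested genes). This comparison shares its PRI-724 arrays with the first one, so the values of both are given side by side and not as separate support. Igsf6, Mpeg1 and Fcer1g fell, at -3.96 ± 0.39, -3.82 ± 0.31 and -3.10 ± 0.28 (adjusted p = 0.000964, 0.000756 and 0.000756). Cd14, which did not pass the test against vehicle, fell by 2.18 ± 0.30 (adjusted p = 0.00370), as did Fcgr1 by 2.69 ± 0.53 (adjusted p = 0.0222), with -4.10 in young cells and -1.28 in old cells. Itgam, Itgax, Trem2, C5ar1 and Lyz2, which fell against vehicle, were not called against quiescent cells, with differences from -1.47 to -0.52. Gpnmb stood at 0.29 ± 0.30 and Cx3cr1 at 0.01 ± 0.39. Without the young PRI-724 array no gene of the 15526 was called by limma, with 31 members lower at an unadjusted p under 0.05 (6.36% of all tested genes), and without the old PRI-724 array 6 members fell (0.573% of all tested genes).

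Over the state comparisons, 22 members fell in both PRI-724 comparisons, which share the PRI-724 arrays (1.06% of all tested genes fell in both). Of these members 1, Ms4a7, fell in culture activation too. Cd14 fell in activation and against quiescent cells, Fcgr1 against quiescent cells alone, and 5 fell against vehicle alone. The other 10, Csf2rb, Spi1, Cx3cr1, Fcgr3, Gpnmb, Cd37, Coro1a, Aif1, Arhgap30 and Alox5ap, were called in none of the 3 state comparisons.

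The last comparison asked how old cells differed from young ones over the 3 states. None of the 39 members was called by limma (0.251% of all tested genes fell and 0.264% rose), and 12 had an unadjusted p under 0.05, as did 10.4% of all tested genes. Lyz2 had the largest positive difference, 1.29 ± 0.33 (adjusted p = 0.171), and Fcgr1 the largest negative one, -1.31 ± 0.43 (adjusted p = 0.305). With 1 array of a state left out, the age difference rests on the other states, whichever array of that state is dropped. Without either vehicle array the members' median was 0.52, against 0.07 over all tested genes. Without either quiescent array the members' median went from 0.34 to 0.06, against 0.06 over all tested genes. Without either PRI-724 array the members' median was 0.24, against 0.03 over all tested genes.

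The ages stood furthest apart in quiescent cells. There 31 of 39 members were higher in old cells, with a median of 0.57 against 0.03 over all tested genes. In that pair 12 members were at least 2-fold higher and 1 at least 2-fold lower (3.16% and 2.98% of all tested genes). Lyz2 had signals of 8.84 in young and 11.32 in old quiescent cells, Trem2 of 6.03 and 8.01, Csf1r of 7.13 and 9.01, and Itgax of 5.30 and 7.04. Fcgr1 went the other way, from 9.22 to 6.63. In vehicle-treated cells the median difference was -0.10, against 0.01 over all tested genes. There 0 members were at least 2-fold higher and 4 at least 2-fold lower (1.15% and 1.79% of all tested genes), and Lyz2, Trem2 and Csf1r stood at 0.44, 0.37 and -0.00. With PRI-724 the median was 0.31, against 0.17 over all tested genes, and 4 members were at least 2-fold higher and 1 at least 2-fold lower (5.46% and 1.96% of all tested genes).

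Markers of other liver cells moved with age in the quiescent cells as well. The 12 hepatocyte markers had a median old minus young difference of 3.05 there, and their summed log2 signal was 74.5 on the young and 106.9 on the old quiescent array, with 8 and 12 of 12 above the background's 95th percentile. On the other arrays the sums lay between 59.6 and 82.7. The sinusoidal endothelial markers had a median of -1.52 in the same pair and the Kupffer cell identity genes 0.56. Their part in the age differences of the macrophage genes was not tested.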

How the data were processed

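RNA from 6 pooled cell samples was hybridized, each to its own Affymetrix array, covering 3 states in 2 age groups. The deposited values are log2 signals of 41345 probe sets. The tools named per the submitters' processing notes are Affymetrix Expression Console and RMA, a method that corrects background, normalizes and summarizes each probe set. Their versions were not given in the sources used here. In the platform annotation 23521 probe sets carried a single gene symbol, 1814 several and 16010 none, and only the first kind was used. A gene was represented by its probe set with the highest mean, and the 30% of genes with the lowest mean (under 4.70) were not tested. RefSeq's GRCm38.p6 tables gave names and promoter sequences only.

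A limma model of state and age was fitted (limma 3.58.1, R 4.3.3), with an intensity trend (2 residual and 7.77 prior degrees of freedom) and Benjamini-Hochberg adjustment over all 15526 genes. Its calls were tested on simulated data. Alternatives were another filter, the mean of probe sets, no trend, no second factor, only the arrays compared, cyclic loess, quantile normalization and each array left out in turn. All 39 members are named, with values on all arrays for the brightest and the most changed of each role and for those called in activation, and, chosen after their values were seen, for Cx3cr1, Gpnmb, Aif1 and others where a result turns on them. Genes of other lists are named from the 2 largest PRI-724 differences of a list, except Csf1, Il34, Lyz1 and Fcgr2b, which were added after their values were seen. The members and lists were chosen with earlier results of these data known. Summaries and plots used matplotlib 3.10.9 and pandas 2.3.3 under Python 3.11.15.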

Additional observations from a re-analysis of the deposited data

Results flagged for a closer look

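Some members moved in opposite directions in the young and the old pair, each with 1 array a group. The difference between the ages was not tested, since no group holds a second array.

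In vehicle minus quiescent, 15 members had opposite signs, as did 4029 of the 15526 tested genes. Higher in the young and lower in the old pair were Csf1r (1.61 and -0.28), Adgre1 (0.43 and -0.54), Itgb2 (0.90 and -0.11), Ptprc (0.19 and -0.07), Fcgr3 (1.34 and -0.02), Lilrb4a (0.68 and -0.23), Igsf6 (0.97 and -0.44) and Lyz2 (1.93 and -0.10). The same held for Cd68 (0.29 and -0.30), Ctss (0.33 and -0.28), Slc11a1 (0.90 and -0.62), Cd53 (0.35 and -0.26) and Cd84 (1.10 and -0.29). Fcer1g (-0.29 and 0.03) and Coro1a (-0.19 and 0.11) went the other way.

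With PRI-724 against vehicle, Coro1a alone of the 39 members had opposite signs (0.28 and -0.35), as did 6082 of all tested genes. Against quiescent cells, 6 members did, higher in the young and lower in the old pair: Itgam (0.11 and -1.44), Cx3cr1 (0.74 and -0.71), Fcgr3 (0.018 and -1.99), Trem2 (0.12 and -1.16), Gpnmb (1.01 and -0.43) and Coro1a (0.085 and -0.24). The comparisons share arrays, so these counts are not separate evidence.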

How the results depend on the processing

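The model of state and age pairs the arrays by age. As each group holds 1 array, the spread within a group could not be measured. Of the 39 members, 27 fell with PRI-724 against vehicle, and this count was 12 without age in the model, 16 after cyclic loess and 15 after quantile normalization, and lay between 0 and 33 with 1 array left out. Against quiescent cells 24 fell, and the count lay between 0 and 29 with 1 array left out. In culture activation 2 fell and 0 rose; 0 fell without age in the model, 1 with only the arrays of the states compared and 0 after quantile normalization. With 1 array left out, 0 to 3 fell and 0 to 7 rose. For age, 0 rose, and 0 to 4 with 1 array left out. The cause of these shifts was not tested. No member's called difference changed sign under any alternative. Leaving out an array leaves 1 sample in a state, which is then assumed to vary like the others. The young PRI-724 array, on which both PRI-724 counts rest, has the narrowest spread of signal, and 22 members lie there at or under the background's 95th percentile, where lower levels are not resolved.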
